A study of Sus scrofa with 12 samples.

Results

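The swine leukocyte antigen (SLA) region is the major histocompatibility complex of the pig. It was taken here as chromosome 7, positions 22000001 to 26000000 of Sscrofa11.1, and its members were the open chromatin intervals whose midpoint lay in this span of 4 Mb. These were 512 of 217213 intervals. Overlapping or adjoining common intervals were merged into regions, which left 295 of 140081 regions. ATAC-seq, in which a transposase cuts DNA where chromatin is accessible and the cut fragments are sequenced, was performed on the longissimus dorsi muscle, a back muscle, of 3 Duroc and 3 Luchuan boars. All boars were 180 days old, were kept under the same conditions and were fasted overnight. Duroc is a lean breed and Luchuan an obese Chinese breed, and breed was the only stated difference between the groups. The read counts were given once per breed, so no spread between boars could be had and no difference was tested.

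The region holds 3 neighbouring classes of genes. Class I molecules present peptides from inside a cell to CD8 T cells, and the classical class I genes of the pig are SLA-1, SLA-2 and SLA-3. Class II molecules present peptides taken up from outside to CD4 T cells, mainly on professional antigen-presenting cells, and genes for peptide production and transport lie among them. Class III holds genes of other functions, such as complement factors, the tumor necrosis factor family and heat shock proteins. Classical class I and class II genes are among the most polymorphic genes of vertebrates, and class I genes also occur as closely similar copies, whereas class III genes vary far less. Healthy muscle fibers carry little class I or class II protein at their surface.

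The polymorphism bears on how these reads can be read. They were aligned to Sscrofa11.1, an assembly of a Duroc pig. Luchuan reads that differ from this assembly can fail to align or align to a similar copy, and the treatment of reads with several matches was not given in the sources used here. Lower accessibility, lost alignment, a missing or extra gene copy and reads placed at another copy cannot be told apart in these counts. In bulk muscle, fewer cells of a type and less signal per cell cannot be told apart either.

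Across the whole span, the breeds were close to each other. The 295 regions held 59584 Duroc and 39931 Luchuan reads, with a median of 98 and 63 reads per region. All regions of the table held 20759894 Duroc and 13746020 Luchuan reads, so Luchuan counts were scaled. The log2 ratio of Luchuan to Duroc was computed with 1 read added to each count and was set so that the median of all common regions of the table was 0. A shift shared by most regions, of depth or of accessibility, cannot be seen after this scaling. Positive values are higher in Luchuan. Medians and calls used the 253 regions with at least 50 reads in both breeds together, and the other 42 regions were left out of them.

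The median log2 ratio of the span was -0.01, with a 95% order-statistic interval over its regions of -0.07 to 0.05. Above 0 lay 126 regions, and 127 lay below. The middle 50% of the regions spread over 0.41, against 0.55 for the 102248 regions of the whole table that passed the same minimum. Compared with 465 windows of the same length over the genome, 430 windows had a wider spread than the span and 34 a narrower one. Ratios from few reads spread more, and the windows were not matched for reads. The median region of the span held 98 Duroc and 63 Luchuan reads, against 61 and 38 in the whole table. Of the regions with at least 200 reads, 117 of 128, or 91.4%, lay within 0.5 of 0, against 83.8% in the whole table.

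At least 2-fold higher in Duroc were 8 of the 253 regions, or 3.16%, beside 5.22% of all regions of the table. At least 2-fold higher in Luchuan were another 8, again 3.16%, beside 2.45% of all regions. A 4-fold difference was found in 1 region higher in Duroc, or 0.395%, beside 0.600% of all regions. In the other direction it was found in 2 regions, or 0.791%, beside 0.267% of all regions. All 3 regions with a 4-fold difference lay in the classical class I block. Among regions with enough reads, the 4-fold differences of the 4 Mb span thus lay in a block of 191 kb. Of the 247 regions outside this block, 7, or 2.83%, were 2-fold higher in Duroc and 6, or 2.43%, in Luchuan. Also outside it, a region at TRIM40 with 23 reads, too few for a call, stood at 2.22.

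**Figure D1:**
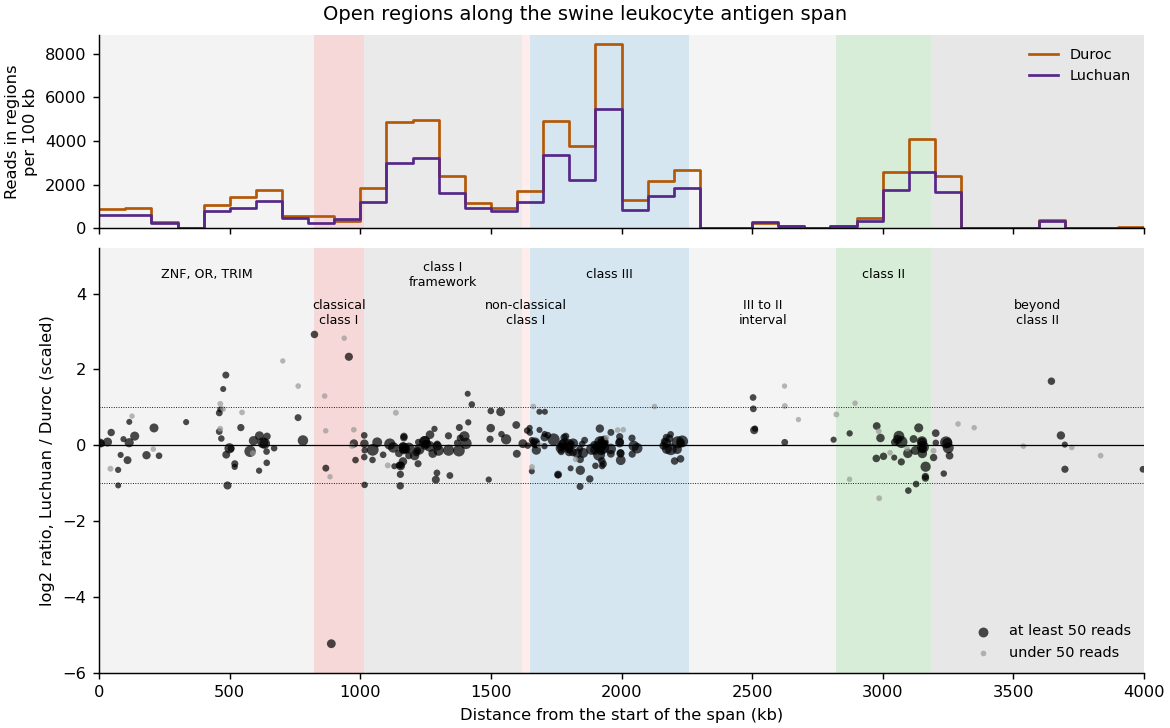
Reads and breed ratio along the span. The upper panel gives the reads in regions per 100 kb for each breed, and the lower panel gives the scaled log2 ratio of Luchuan to Duroc for each region (1 pooled count per breed), against the distance in kb from the start of the span. Dark points have at least 50 reads, with point size rising with reads, dotted lines mark a 2-fold difference, and shading marks blocks of genes. The dark points farthest from 0 sit in the classical class I block, at 2.92, 2.33 and -5.23, while reads peak in the class III block.

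The classical class I block, from the flank of SLA-1 to that of the pseudogene SLA-11 (chromosome 7, 22822137 to 23012790), held 12 regions. Of these, 5 were common to the breeds, 4 were specific to Duroc and 3 to Luchuan. Only 6 regions reached 50 reads, and their log2 ratios ran from -5.23 to 2.92, with a middle 50% of 2.31. This was the widest spread of the 8 blocks into which the span was divided.

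The region at the lower-coordinate end of SLA-1 (22824029 to 22824515) held 28 Duroc and 148 Luchuan reads. Its log2 ratio was 2.92, with a 95% Clopper-Pearson interval of 2.37 to 3.60. Such intervals treat every read as independent and leave out the spread between boars. Without molecular identifiers several reads can stem from the same molecule, so the intervals can be too narrow even for counting error. The annotation starts SLA-1 at 22824137, so the region began 108 bases before the gene. A shorter interval called in Duroc within it (22824229 to 22824418) held 10 Duroc and 74 Luchuan reads.

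A second gene model, LOC100513601, carries SLA-1 and PD1 among its RefSeq synonyms and lies within the long annotated body of SLA-1. The region at its lower-coordinate end (22888505 to 22889196) held 388 Duroc and 6 Luchuan reads. The log2 ratio was -5.23, with an interval of -6.91 to -4.32, and the region was listed as specific to Duroc. Only 15 of the 102248 regions of the table had a value this low. This is the reverse of the picture at SLA-1, although the region began at nearly the same place relative to its gene, 111 bases before it.

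The region at SLA-3 (22938093 to 22938335) was again higher in Luchuan, with 4 Duroc and 23 Luchuan reads. It began 118 bases before the gene and was listed as specific to Luchuan. Its log2 ratio was 2.82, with an interval of 1.54 to 5.08, and its 27 reads were too few for a call. The region at SLA-2 (22955806 to 22956335) held 59 Duroc and 204 Luchuan reads, which gave 2.33, with an interval of 1.93 to 2.80. It lay inside the annotated gene, 3.33 kb from its upper-coordinate end, since the annotated body of SLA-2 also encloses SLA-3.

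Within the same block, the pseudogene SLA-4 stood apart from its neighbours. Its region (22975094 to 22975622) held 179 Duroc and 125 Luchuan reads, a log2 ratio of 0.05 with an interval of -0.30 to 0.38. The remaining 7 regions of the block held between 27 and 118 reads in both breeds together. The largest of them, 0.22 kb from an end of the model LOC100515902, held 82 Duroc and 36 Luchuan reads, at -0.60. This gene and LOC100513601 were chosen after their values were seen. No region was listed at SLA-5 or SLA-11.

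**Figure D2:**
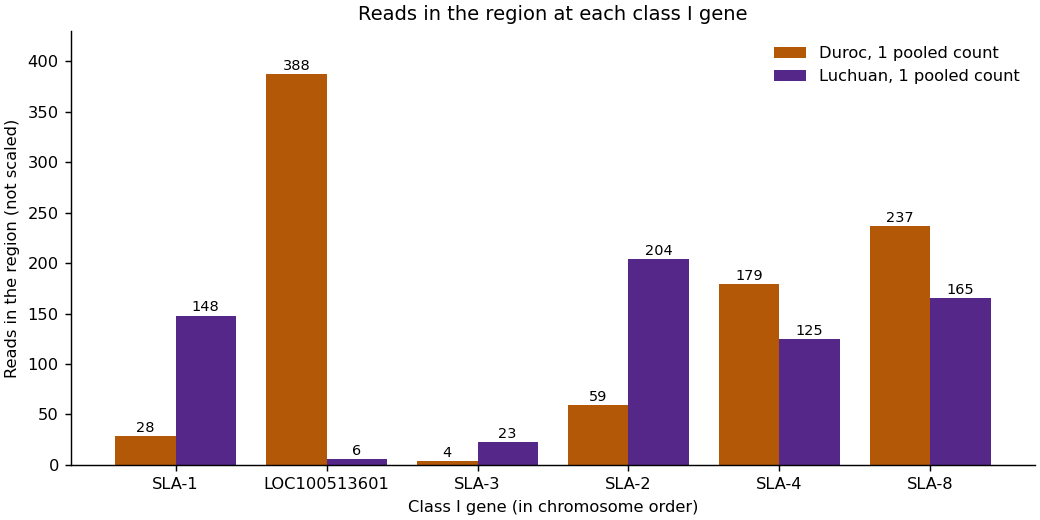
Reads in the region at each class I gene, as deposited and not scaled. Bars give the pooled count of each breed, in chromosome order, from a baseline of 0. Duroc led at LOC100513601 (388 against 6), and Luchuan led at SLA-1 (148 against 28), SLA-3 (23 against 4) and SLA-2 (204 against 59). At SLA-4 and SLA-8 the counts stood near the median ratio of the common regions of the table.

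Summed over SLA-1, LOC100513601, SLA-3 and SLA-2, the 4 regions held 479 Duroc and 381 Luchuan reads. The log2 ratio of these sums was 0.23, with an interval of 0.03 to 0.43. These 4 regions were picked after their values were seen and lay on both sides of 0, so a sum near 0 follows in part from the choice. Over all 12 regions of the block, SLA-4 included, the sums were 885 and 642 reads, at 0.10 with an interval of -0.05 to 0.25. Without LOC100513601 the sums of the other 3 picked regions were 91 and 375 reads, and the ratio was 2.60, with an interval of 2.27 to 2.95.

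The same 4 regions took different shares of their summed reads in the pooled counts of each breed. LOC100513601 took 81.0% of the Duroc reads of these 4 regions (exact binomial interval 77.2% to 84.4%) and 1.57% of the Luchuan reads (0.58% to 3.40%). SLA-2 took 12.3% of the Duroc reads and 53.5% of the Luchuan reads. SLA-1 took 5.85% and 38.8%, and SLA-3 took 0.835% and 6.04%. Whether the reads came from the copy to which they were aligned was not tested. Such neighbouring, opposite differences were then counted over the table, which held 273 regions at least 4-fold higher in Luchuan. Of 613 regions at least 4-fold higher in Duroc, 9, or 1.47%, had one of these within 100 kb. On both sides they were found at 1 region, which was LOC100513601. This pattern was defined after the class I values had been seen, so it was fixed beforehand that LOC100513601 would be counted. The same share was not computed for other regions, so these counts do not show how rare the pattern is.

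The non-classical class I genes, which vary less than the classical ones, lie 605 kb away beside class III. Of their 5 regions, 0 differed 2-fold, beside 5.22% of all regions for Duroc and 2.45% for Luchuan, and so few regions say little on this count. The region at SLA-8 (23622119 to 23622636), which also lies next to the class I-like pseudogene MIC-1, held 237 Duroc and 165 Luchuan reads. Its log2 ratio was 0.04, with an interval of -0.26 to 0.33. SLA-7 (23638499 to 23638726) held 43 and 38 reads, at 0.39, and SLA-6 (23649166 to 23649429) held 40 and 34 reads, at 0.33. The intervals of SLA-7 and SLA-6 both included 0, from -0.29 to 1.05 and from -0.38 to 1.02. The 5 regions of this block ran from -0.01 to 0.46, so that 4 of 5 lay above 0.

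The class III block (23651343 to 24258281) was the densest part of the span in open regions and had the narrowest spread of ratios of all blocks. It held 96 regions, or 15.8 per 100 kb, against 6.29 in the classical class I block and 8.85 in the class II block. These regions covered 6.88% of its length and took 24579 Duroc and 16128 Luchuan reads. Their median was 134.5 and 79 reads, against 24 and 21 in the classical class I block, and the blocks were not matched for reads. Of the 88 regions with at least 50 reads, the median log2 ratio was -0.02 and the middle 50% spread over 0.28. Of 49 regions with at least 200 reads, 47, or 95.9%, lay within 0.5 of 0.

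The genes of the class III list gave the same picture. Of 52 genes, 43 had a region within the gene or 2 kb of its ends, and the 82 regions with enough reads had a median of -0.03. Over the same minimum, the 6 regions at class II chain genes had a median of 0.01. The 4 regions with enough reads at the classical class I genes had a median of 0.87. Those at LOC100513601 and near LOC100515902 were among them because the body of SLA-1 encloses them. The region at SLA-3 had too few reads. At these enclosed models the values were -5.23 and -0.60, and at SLA-1 and SLA-2 they were 2.92 and 2.33. That median lay between values far apart on both sides of 0. With the enclosed models included, the contrast with class III was therefore one of spread and not of a common direction. The middle 50% was 4.24 at the classical class I genes against 0.29 at the class III genes. The median of the whole table was -0.06.

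**Figure D3:**
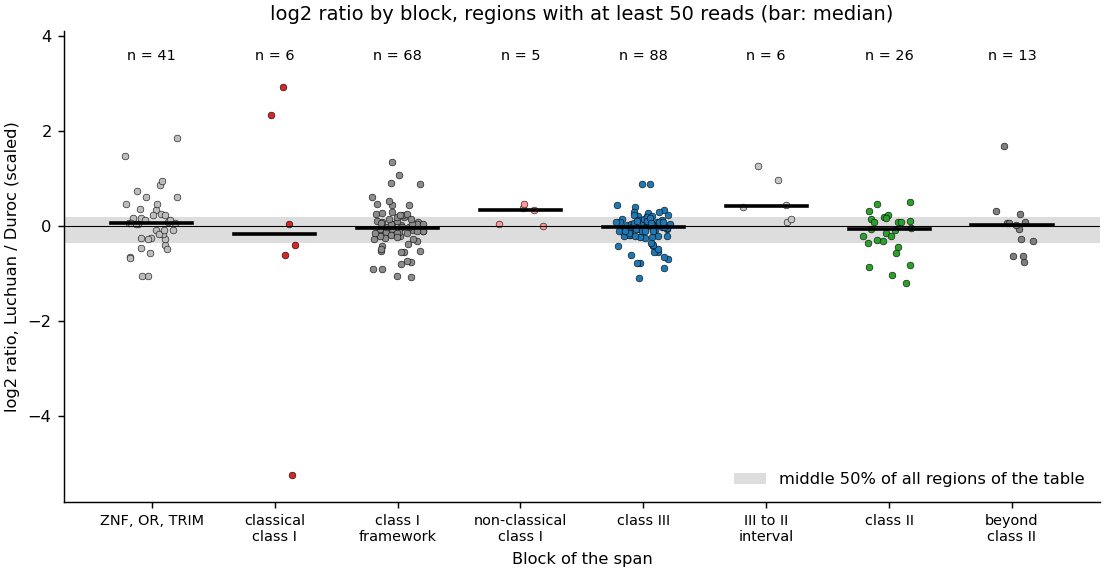
Scaled log2 ratio of Luchuan to Duroc for every region with at least 50 reads, by block of the span in chromosome order. Each point is 1 region (1 pooled count per breed), black bars are medians, n is the number of regions, and the gray band holds the middle 50% of all regions of the table. The 88 class III regions lay between -1.09 and 0.88, whereas the 6 regions of the classical class I block reached from -5.23 to 2.92.

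The strongest open region of the span lay at the heat shock protein 70 genes of class III. The region next to HSP70.2, which encodes an inducible chaperone, lay inside the annotated body of HSPA1L (23928177 to 23929645). It held 1221 Duroc and 790 Luchuan reads, at -0.07 with an interval of -0.20 to 0.06. The body of HSPA1L and its flanks held 17 regions, from -0.55 to 0.44. A further strong region lay at RNF5, a ubiquitin ligase (24214828 to 24215909), with 990 and 708 reads, at 0.08. Another (23739557 to 23740447) lay outside genes, 2.3 kb from PRRC2A, with 952 and 717 reads, at 0.15.

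The immune genes of class III divided into those with and those without an open region in this muscle. TNF and LTA, which encode cytokines, had none, and neither had the complement genes C2 and C4A or AGER, a receptor for glycated proteins. LTB, which encodes the membrane-bound partner of lymphotoxin alpha, shared a region with the overlapping gene LST1, whose end it spans, of 151 Duroc and 118 Luchuan reads, at 0.21. The region inside CFB, complement factor B, held 78 and 60 reads, at 0.19, and a region just beyond it, inside the neighbouring gene NELFE, held 91 and 52 reads, at -0.23. No interval of these 3 regions excluded 0, with bounds of -0.15 to 0.56 at LTB, -0.33 to 0.69 inside CFB and -0.77 to 0.26 inside NELFE. A gene without a listed region had no interval in the table, and its reads are not known.

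The other class III genes of the naming rule ranged from strongly to weakly read. BAG6, a chaperone of newly made proteins, shared a region with APOM at 575 Duroc and 369 Luchuan reads, at -0.08. NOTCH4, a receptor best known from endothelium, held 897 and 652 reads, at 0.10. EHMT2, a histone H3 lysine methyltransferase, held 252 and 178 reads, at 0.06. TNXB, which encodes the matrix protein tenascin X, had only a weak region of 15 and 21 reads, at 1.02, below the read minimum.

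The single class III region with a 2-fold difference lay inside DDAH2, which encodes a dimethylarginine hydrolase, close to CLIC1 (23841120 to 23841378). It held 90 Duroc and 28 Luchuan reads, at -1.09 with an interval of -1.79 to -0.50. The stronger region at the end of DDAH2 (23841899 to 23842732) held 365 and 156 reads, at -0.66 with an interval of -0.95 to -0.39. Both regions were higher in Duroc. Of the 88 class III regions, 1, or 1.14%, was thus 2-fold higher in Duroc and 0 in Luchuan, beside 5.22% and 2.45% of all regions. No 100 kb bin of the span with at least 1000 reads had a lower summed ratio than the bin that holds this gene (23800001 to 23900000, -0.21), and the bins with this many reads reached up to 0.33. Of these 22 bins, 20 lay within 0.25 of 0. The read minimum left out the bins that hold the classical class I genes, 22800001 to 22900000 at -0.68 and 22900001 to 23000000 at 0.84.

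**Figure D4:**
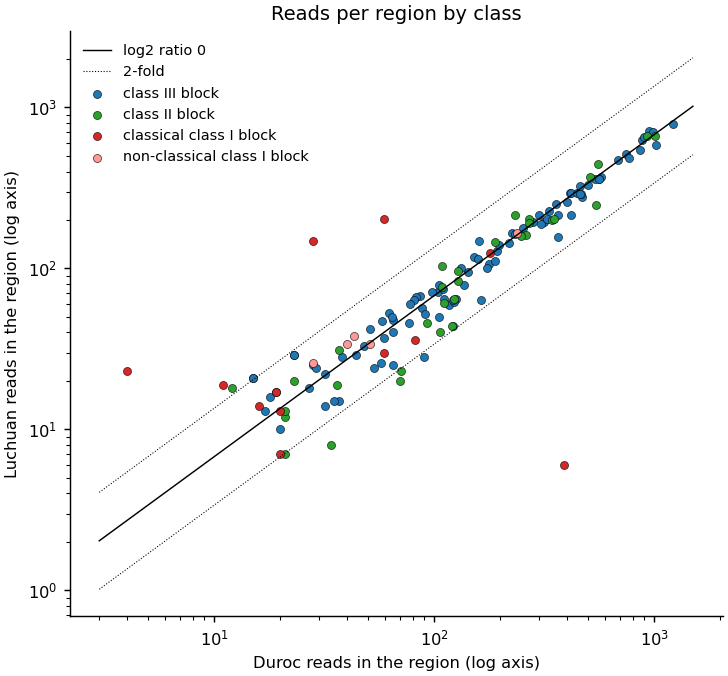
Luchuan against Duroc reads for the regions of the class I, class II and class III blocks, both on log axes, with no read minimum. Each point is 1 region (1 pooled count per breed), the solid line marks a log2 ratio of 0 after scaling and the dotted lines a 2-fold difference. Class III and class II points follow the line up to 1221 Duroc reads, while the 388 against 6 reads at LOC100513601 and the 28 against 148 reads at SLA-1 lie far from it on opposite sides.

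The class II block (24823037 to 25184665) held 32 regions, of which 26 had enough reads, with a median log2 ratio of -0.07 and a range of -1.20 to 0.51. Listed regions were sparse at its class II chain genes, and reads at genes without one are not known. Of 12 annotated chain genes and pseudogenes, 5 had a region. SLA-DRA and SLA-DRB1, the chains of the DR molecule, had none, and neither had SLA-DRB4, SLA-DQA1, SLA-DQB2, SLA-DOB or SLA-DOA. Among the protein-coding genes of the block, 10 of 16 had a region, or 62.5%, against 47 of 55, or 85.5%, in the class III block and 81.5% in the whole table.

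Among the polymorphic chains named in the annotation, SLA-DQB1 was the one with reads enough for a ratio at its gene end. The region there (24977015 to 24977475) held 108 Duroc and 104 Luchuan reads, at 0.51 with an interval of 0.10 to 0.91. A second region inside the gene (24975301 to 24975868) held 123 and 65 reads, at -0.35 with an interval of -0.82 to 0.09. The 2 regions of this gene thus pointed in opposite directions. The pseudogene SLA-DRB5 had a region with 111 and 61 reads, at -0.29, and the pseudogene SLA-DYB had one with 21 and 12 reads. Of the 6 class II chain regions with enough reads, 0 reached a 2-fold difference in either direction, beside 5.22% of all regions for Duroc and 2.45% for Luchuan, so that few or none would be called at the share of the table.

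SLA-DMA and SLA-DMB form the DM molecule, which exchanges peptides on class II molecules and varies little. The region at SLA-DMA (25137697 to 25138303) held 232 Duroc and 216 Luchuan reads, at 0.46 with an interval of 0.18 to 0.73. SLA-DMB had regions of 262 and 161 reads, at -0.14, and of 128 and 97 reads, at 0.16, and both of their intervals included 0. Both genes lie within the long annotated body of BRD2, a chromatin reader, so that their regions cannot be assigned to 1 gene by position.

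Genes that prepare peptides for class I molecules lie between the class II chains and were open in both breeds. TAP1, a subunit of the peptide transporter, and PSMB9, a subunit of the immunoproteasome, shared a region (25071509 to 25072487) of 928 Duroc and 667 Luchuan reads, at 0.09. The region next to PSMB8 and TAP1 (25061946 to 25062700) held 558 and 446 reads, at 0.24 with an interval of 0.06 to 0.42. TAP2, the partner of TAP1, shared a region with PSMB8 (25056468 to 25057090) of 270 and 203 reads, at 0.15. TAPBP, which encodes tapasin, lies outside the span at 29663491 and held 829 and 562 reads in its strongest region, at 0.00. All 5 genes had a region, and the 9 regions of these genes had a median of 0.00.

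Of the 26 regions of the class II block with enough reads, 2, or 7.69%, were 2-fold higher in Duroc and 0 in Luchuan. Beside this stand 5.22% and 2.45% of all regions, and so few regions say little on this count. Below the read minimum, a region inside LOC100155975 held 34 Duroc and 8 Luchuan reads, at -1.40. Another at LOC100153139 held 12 and 18 reads, at 1.11. The 2 called regions lay in the annotated body of BRD2. The region at 25098170 to 25098426 held 70 Duroc and 20 Luchuan reads, at -1.20 with an interval of -2.04 to -0.51. The other (25128001 to 25128246) held 71 and 23 reads, at -1.02, and was named after its value was seen. The strongest region of BRD2 (25153559 to 25154484) held 1010 and 662 reads, at -0.05 with an interval of -0.19 to 0.10. Beyond the end of BRD2, 3 neighbouring regions within 2 kb of the gene were higher in Duroc without reaching 2-fold, and they were named after their values were seen. The strongest of them (25163935 to 25164878) held 543 and 248 reads, at -0.57 with an interval of -0.79 to -0.35. The other two held 106 and 40 reads, at -0.82, and 120 and 44 reads, at -0.87.

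The interval between class III and class II (24258282 to 24823036) had few listed open regions. It held 10 regions, or 1.77 per 100 kb, and 1 of its 10 protein-coding genes had a region. The longest stretch of the span without a region, 271 kb from 24232742 to 24503650, began at the NOTCH4 region and held 3 protein-coding genes. BTNL2, an inhibitor of T cell activation, lay in another such stretch of 134 kb. All 6 regions with enough reads lay above 0, from 0.08 to 1.26, and the sums of 406 Duroc and 418 Luchuan reads gave 0.60 with an interval of 0.40 to 0.80. This rests on few reads, and 4 of the 6 regions lay within 8 kb of each other outside genes.

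Outside these classes, the largest ratios toward Luchuan among regions with enough reads lay in the first and last blocks of the span. A region outside genes near LOC100516811 (22484847 to 22485238) held 35 Duroc and 87 Luchuan reads, at 1.85 with an interval of 1.29 to 2.49. A region inside LOC100516982 nearby (22474755 to 22474971) held 18 and 35 reads, at 1.48. The region inside HMGCLL1, a lyase of ketone body metabolism (25645851 to 25646334), held 53 and 117 reads, at 1.69 with an interval of 1.22 to 2.20. These 3 were higher in Luchuan.

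Higher in Duroc were a region inside PPP1R10, a subunit that binds protein phosphatase 1 (23152522 to 23152795), with 123 Duroc and 39 Luchuan reads, at -1.07, and a region outside genes (22491104 to 22491654) with 196 and 63 reads, at -1.06. The latter lay only 6 kb from the region at 22484847, which pointed the other way. The first gene of the span, ZNF389, a zinc finger gene, had a region of 129 and 90 reads at its lower-coordinate end, at 0.05. The last, HCRTR2, the type 2 orexin receptor, had a weak region of 24 and 13 reads. The strong region between RXRB, a retinoid receptor gene, and SLC39A7, a zinc transporter gene (25242209 to 25243461), held 974 and 695 reads, at 0.07.

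Regions that spanned the end of a gene were the most strongly read. These 71 regions, or 24.1% of the span, had a median of 358 Duroc and 215 Luchuan reads, against 82 and 52 inside genes and 59 and 41 outside genes. Their median log2 ratio was 0.05. Of the 67 such regions with enough reads, 1 was 2-fold higher in Duroc, at LOC100513601, and 1 in Luchuan, at SLA-1. Beside this stand 5.22% and 2.45% of all regions, and the shares over gene-end regions of the whole table were not computed. Below the read minimum, gene-end regions at SLA-3, TRIM40 and LOC100153139 also passed 2-fold toward Luchuan, at 2.82, 2.22 and 1.11.

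Fewer regions of the span were listed for 1 breed than elsewhere. Duroc-specific were 66 regions, or 22.4%, against 31.8% of the whole table, and Luchuan-specific were 41, or 13.9%, against 19.1%. Most of these were within 2-fold, as in the whole table. Of the Duroc-specific regions of the span, 58 of 66, or 87.9%, were within 2-fold, beside 85.1% in the whole table. Of the Luchuan-specific regions, 27 of 41, or 65.9%, were, beside 64.2% in the whole table. The region at LOC100513601, with 6 Luchuan reads, was among the 8 Duroc-specific regions that were not within 2-fold.

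Markers were measured in the same way to check the tissue. The 11 skeletal muscle markers found in the annotation all had regions, 279 in all, with a median log2 ratio of -0.06. TTN alone held 186 of them. By gene, the medians were above 0 at TTN (0.025) and MYOD1 (0.088) and below 0 at the others, down to -1.15 at MYH4. At MYH4, 11 of 21 regions were 2-fold higher in Duroc. Of the 279 regions, 13, or 4.66%, were 2-fold higher in Duroc and 0 in Luchuan, beside 5.22% and 2.45% of all regions. Of 16 leukocyte markers, 11 had a region, with 25 regions of enough reads, a median of -0.06 and summed counts of 3815 Duroc and 2442 Luchuan reads, a log2 ratio of -0.08. The T cell markers CD3D and CD4 and the B cell marker MS4A1 had no region. PTPRC, the pan-leukocyte marker, held 53 Duroc and 8 Luchuan reads in its strongest region, at -2.02 with an interval of -3.45 to -1.09. The T cell marker CD3E pointed the other way, with 13 and 21 reads, at 1.21 with an interval of 0.19 to 2.37 and below the read minimum. The better-read T cell marker CD8A held 370 and 210 reads in its strongest region, at -0.25 with an interval of -0.51 to -0.01. The strongest regions of the macrophage markers CSF1R, CD68 and AIF1 stood at 0.08, 0.08 and 0.26, but the median of the CD68 regions was -0.26. Those of the leukocyte markers CD14, SPI1 and ITGAM stood at -0.16, -0.12 and 0.00. These markers were named after their values were seen. The part of immune cells in the class I and class II values was not tested. Of 8 liver and neuron markers, 6 had a region and ALB and TTR had none, so a region at a gene in these data is not a mark of its cell type.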

How the data were processed

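ATAC-seq of longissimus dorsi muscle was performed on 3 Duroc and 3 Luchuan boars. Per the labels and the methods, the authors removed low-quality sequence by Trimmomatic (version 0.36). Bowtie2 alignment to Sscrofa11.1 and MACS2 peak calling followed. The tool that compared the breeds, the removal of duplicates and the handling of reads with several matches were not given in the sources used here. The authors deposited raw read counts per interval in 1 column per breed. These were read as pooled over boars, since no column names a replicate. The authors also deposited a rescaled log2 fold change and mean log2 signal, and a p-value for each interval. These 3 columns hold their own comparison and were not used. The 6 mRNA samples were not analysed here.

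Common intervals that overlapped or adjoined were joined, and the longest interval stood for each region. Starts were taken as counted from 0 and are given counted from 1. Luchuan counts were multiplied by 1.48, so that the median log2 ratio of common regions, -0.56 before scaling, became 0. The pseudocount was 1, and medians and calls required 50 reads over both breeds. The 95% interval of a log2 ratio came from the exact (Clopper-Pearson) interval of the share of Luchuan reads in both breeds. A gene took the regions whose midpoint lay within its body or 2 kb of its ends. Genes came from the RefSeq annotation of Sscrofa11.1, which was used without strand and exons, so promoters, exons and introns were not separated. Scaling and calls were tested on simulated data.

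The genes named were the SLA genes with a region, TAP1, TAP2, TAPBP, PSMB8, PSMB9, and a list of class III genes, of which HSPA1A did not match the annotation. Also named were the 5 regions of each direction with the largest log2 ratio, the 5 with the most reads, and the first and last gene of the span. The members and lists were chosen with earlier results of these data known. Computation used Python 3.11.15 with pandas 2.3.3 and NumPy 2.4.6, intervals came from SciPy 1.17.1, and plots from Matplotlib 3.10.9. Alternatives covered the scaling, the pseudocount, the read minimum, the merging, the assignment of genes and the fold.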

Additional observations from a re-analysis of the deposited data

How the results depend on the processing

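Of 61 recomputed values of the medians and of the 2-fold counts, 52 stayed within 1.5 times the count or within the counting or order-statistic interval of the median, and 9 moved further. The median of the span lay between -0.01 and 0.03 and that of class III between -0.04 and 0.01, so their signs carry no direction. The class II median ran from -0.35, with the gene body alone and 1 region left, to 0.09. The count at least 2-fold higher in Duroc, 8, became 3 with a pseudocount of 5, 4 with a minimum of 100 reads, 27 at 1.5-fold and 1 at 3-fold with at least 100 reads. The count in Luchuan, 8, became 18 with no minimum, 4 with a minimum of 100 reads, 19 at 1.5-fold and 4 at 3-fold with at least 100 reads. The median of the classical class I regions, 0.87, became 2.33 over every interval as listed, where 7 intervals counted in place of 4 regions. Fewer reads or looser thresholds change these counts by construction.

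Without the classical class I block, 7 of 247 regions, or 2.83%, were 2-fold higher in Duroc and 6, or 2.43%, in Luchuan. Beside this stand 5.22% and 2.45% of all regions, and this alternative was chosen after the data were seen. The log2 ratios of 34 named regions moved by less than their counting intervals under 5 settings of scaling and pseudocount, 170 values in all. They ran from 2.76 to 2.96 at SLA-1, from -5.34 to -4.62 at LOC100513601, from 2.18 to 2.95 at SLA-3 and from 2.25 to 2.40 at SLA-2. No paired analysis was possible because each breed has 1 pooled column with no replicate number, and for the same reason no replicate could be left out. Regions near 50 reads carry intervals wider than 2-fold, so smaller differences were not detectable there.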

Other observations

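Genes of antigen presentation that lie outside the span were open in both breeds, and their ratios lay near 0. All 24 genes of this list had a region, and the 103 regions with at least 50 reads had a median log2 ratio of 0.02, with 0 at least 2-fold higher in Duroc and 1, or 0.971%, in Luchuan, beside 5.22% and 2.45% of all regions. B2M, which encodes the invariant partner chain of every class I molecule, held 260 Duroc and 239 Luchuan reads at its gene end on chromosome 1, at 0.44 with an interval of 0.18 to 0.70. NLRC5, the activator of class I genes, held 385 and 267 reads in its strongest region, at 0.04. It also held the 1 region of the list that was 2-fold higher in Luchuan, at 1.11, and its 9 regions with enough reads ran down to -0.40. IRF1, a factor induced by interferon, held 625 and 499 reads, at 0.24 with an interval of 0.06 to 0.41. The genes in these paragraphs were chosen after their values were seen.

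For class II, CIITA, the master activator, held 512 Duroc and 296 Luchuan reads in its strongest region, at -0.23 with an interval of -0.44 to -0.02. CD74, the invariant chain of class II molecules, held 106 and 71 reads, at -0.01. IFI30, a thiol reductase, held 41 and 48 reads, at 0.78 with an interval of 0.16 to 1.43, and CTSS, cathepsin S, held 61 and 62 reads, at 0.58 with an interval of 0.05 to 1.12.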
